A study of Mus musculus with 6 samples.

Results

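The miR-23, miR-27 and miR-24 families are made from 2 paralogous clusters of hairpins, called cluster a and cluster b here. Of the 9 mature miRNAs listed for them, 7 were found among the 604 miRNAs of the deposited table. They were mmu-miR-23a-3p, mmu-miR-27a-5p, mmu-miR-27a-3p and mmu-miR-24-2-5p of cluster a, and mmu-miR-23b-3p, mmu-miR-27b-5p and mmu-miR-27b-3p of cluster b. The listed mmu-miR-24-3p and mmu-miR-24-1-5p were not analysed here. The miRNAs were picked by name, as both whole clusters, but with the differences between NEC and Control in these libraries known. One of them, miR-27a-5p, belongs to the DEmiRNAs that the study selected on the same libraries. Every difference between NEC and Control below is therefore a description and supports nothing. The comparison between the library code series, which had no part in that choice, was tested.

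A miRNA hairpin is cut into a 5p and a 3p strand, its arms, and usually 1 arm is kept in the Argonaute protein while the other is degraded. The kept arm pairs with target mRNAs mainly through its seed and lowers their translation and stability. The hairpins of a cluster are made from a single primary transcript, so that their arms start out together and part only at later steps. The clusters are known from endothelial cells, where they act in the growth of vessels, from T lymphocytes, where they restrain effector differentiation, and from fat and muscle cells, where miR-27 represses the adipogenic factor PPARγ.

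The libraries were made from the intestine of wild-type C57BL/6J pups, 3 of the NEC group and 3 of the Control group. The methods place the start at day 5 of age. NEC pups received 40 μl of 33% Esbilac formula by gavage at intervals of 4 h for 96 h, with hypoxia in 99.9% N2 for 100 s and then cold of 4 °C for 10 min at intervals of 12 h. Control pups stayed with the dam without either stress, and their treatment label reads PBS, which the NEC label also names. The model combines formula, hypoxia and cold, so the 3 cannot be told apart, and the sources do not say whether a library is 1 pup. The p-values thus rest only on how far libraries differ from each other, and that spread may be technical.

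Values are the authors' normalized values on a log2 scale, for which neither the transformation nor the depth of a library is given. The lowest miRNAs have nearly equal values in every library, and a difference on this scale understates them and is no fold change of counts. The library codes fall into 2 series, with Control replicates 1 and 2 and NEC replicates 2 and 3 in code series 1, and Control replicate 3 and NEC replicate 1 in code series 2. Libraries of different code series stood apart, with a Spearman correlation across miRNAs of 0.923 to 0.943 against 0.973 to 0.990 within a series. Markers of the tissue were summed on the back-transformed scale, where the most abundant miRNAs of a list carry the sum. The log2 of that sum was 18.3 to 19.2 for 8 miRNAs of intestinal epithelium and 18.7 to 19.4 for 6 of smooth muscle and mesenchyme.

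Cluster a lies on chromosome 8 of GRCm38 and its 3 hairpins, Mir23a, Mir27a and Mir24-2, span 404 bp of the plus strand from 84208518 to 84208921. No other gene of GENCODE vM21 overlaps Mir23a or Mir27a, and Mir24-2 overlaps the lincRNA Gm26532 of the same strand and, on the minus strand, the hairpin Mir3074-2. Cluster b lies on chromosome 13 and spans 792 bp of the plus strand from 63300484 to 63301275, inside the protein-coding gene 2010111I01Rik of the same strand and the gene Fancc of the other. Its Mir23b hairpin is intronic in all 9 transcripts of 2010111I01Rik that cross it, Mir27b falls into an exon of 1 of 9, and Mir24-1 into an exon of 4 of 11.

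The mature sequences, from RefSeq (GRCm38.p6), matched 6 of the 7 miRNAs and are shown because the seed separates the families while single bases separate the paralogs. Each line is written 5′ to 3′ with the seed, bases 2 to 8, in capitals.
miR-23a-3p: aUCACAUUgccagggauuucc
miR-27a-3p: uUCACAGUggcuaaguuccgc
miR-27b-3p: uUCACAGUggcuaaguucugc
miR-27a-5p: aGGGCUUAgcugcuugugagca
miR-27b-5p: aGAGCUUAgcugauuggugaac
miR-24-2-5p: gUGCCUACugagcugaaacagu

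The miR-27 3p arms share 1 seed and differ by the single substitution C19U, counted from the 5′ end with miR-27a-3p as reference. Reads of these arms can be told apart only by that base, and how the authors assigned ambiguous reads is not stated in the sources used here, so the split between miR-27a-3p and miR-27b-3p is uncertain. The seed of miR-23a-3p differs from that of the miR-27 3p arms by U7G. For miR-23b-3p no mature sequence was matched, but the Mir23b hairpin holds a stretch nearly identical to miR-23a-3p. The split of reads between miR-23a-3p and miR-23b-3p is therefore uncertain too. The 5p arms of miR-27 are less alike. Between miR-27a-5p and miR-27b-5p 8 of 22 bases differ, among them G3A in the seed, so these 5p arms have different seeds and no other mature miRNA of the RefSeq table carries either. Both hairpins are shown with the measured arms in capitals and the rest in lower case, since the results turn on their arms.
Mir27a, chr8:84208672-84208758, plus strand: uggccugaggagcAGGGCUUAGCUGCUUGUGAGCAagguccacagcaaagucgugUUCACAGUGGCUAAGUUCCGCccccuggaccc
Mir27b, chr13:63300712-63300784, plus strand: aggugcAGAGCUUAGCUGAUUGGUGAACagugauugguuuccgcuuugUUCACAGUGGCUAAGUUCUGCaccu

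Of the 7 miRNAs, miR-27b-3p had the highest values. Its log2 value was 13.65, 13.60 and 13.67 in Control replicates 1, 2 and 3 and 13.43, 13.43 and 13.86 in NEC replicates 1, 2 and 3. It ranked 20 among all 604 miRNAs and varied little, with a mean of 13.61 ± 0.16 (SD, n = 6). The 7 miRNAs together made up 0.673% to 1.16% of the back-transformed values of a library, and miR-27b-3p alone held 68.4% to 79.0% of that.

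The miR-23 3p arms came next, and both were low in code series 2. For miR-23b-3p the log2 values were 11.85, 11.49 and 10.41 in Control and 11.10 in NEC replicate 2, 11.22 in NEC replicate 3 and 10.30 in NEC replicate 1. For miR-23a-3p they were 10.64, 10.44 and 9.66 in Control and 9.50, 10.07 and 10.21 in NEC replicates 1, 2 and 3. The b paralog was above the a paralog in each library, by 0.97 ± 0.17 (SD, n = 6), as far as reads were assigned to the right paralog.

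Both miR-24-2-5p and miR-27a-3p, in contrast, were highest in the code series 2 libraries. The log2 value of miR-24-2-5p was 7.88, 7.87 and 9.28 in Control replicates 1, 2 and 3 and 9.50, 8.26 and 8.09 in NEC replicates 1, 2 and 3. That of miR-27a-3p was 8.02, 8.08 and 9.04 in Control and 8.74, 7.92 and 8.19 in NEC. For either miRNA the Control and NEC values overlapped.

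The 5p arms of miR-27 were lower. For miR-27a-5p, 6.80, 6.68 and 6.86 were measured in Control replicates 1, 2 and 3 and 7.48, 7.60 and 7.70 in NEC replicates 1, 2 and 3, so that every NEC value lay above every Control value. For miR-27b-5p the values were 5.02, 4.92 and 4.49 in Control and 4.40, 5.14 and 5.60 in NEC, and these overlapped. The unlisted other arm of the Mir23b hairpin, miR-23b-5p, had 2.27 to 3.27 over the 6 libraries, which is under the minimum for testing (3.32, or 10 after back-transformation, reached in 3 or more libraries).

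**Figure D1:**
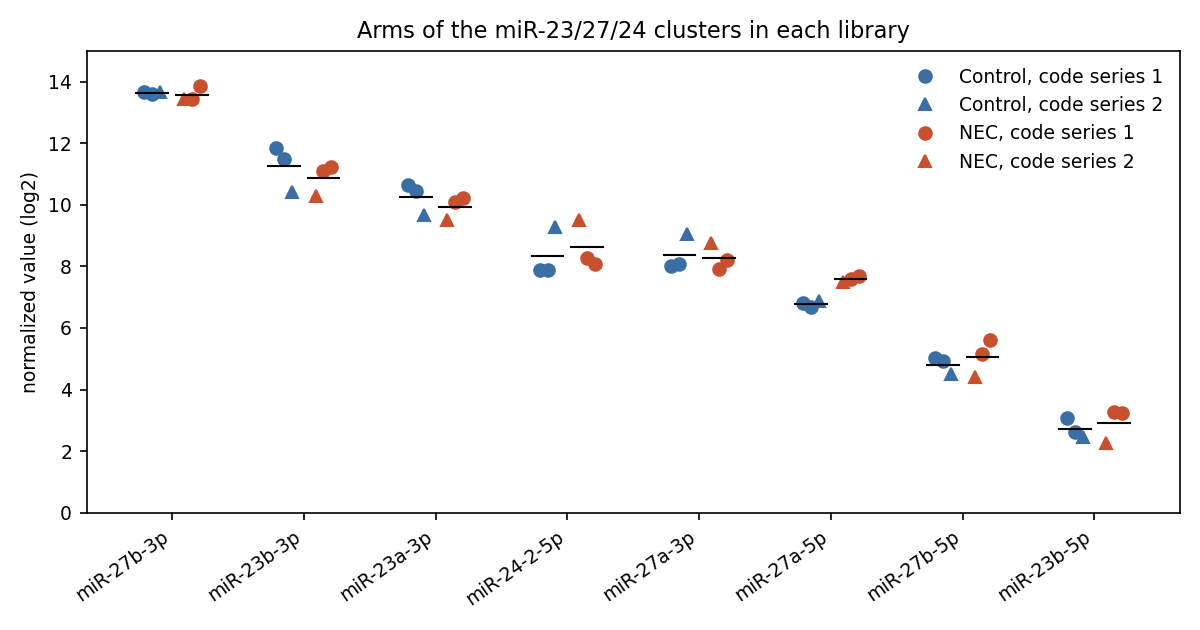
Normalized log2 value (y axis) of the 7 miRNAs and of miR-23b-5p (x axis, in order of the mean) in each library, with circles for code series 1, triangles for code series 2, blue for Control, red for NEC and a line at each group mean. The Control and NEC points of miR-27a-5p do not overlap, while for miR-24-2-5p and miR-27a-3p the triangles lie above and for both miR-23 3p arms below all circles.

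The order of the levels was compared within libraries, over 8 pairs of neighbours, paralogs and arms, with an exact two-sided sign-flip permutation test and Benjamini-Hochberg adjustment over the 8 pairs. Neighbours were taken from the order of the mean values in these same libraries. Their p-values therefore describe that order and are no independent evidence. The smallest p that 6 libraries allow is 0.03125, and it was reached by 6 pairs (adjusted p = 0.0417 in the permutation test). In these, miR-27b-3p was above miR-23b-3p by 2.55 ± 0.57 (SD, n = 6) on the log2 scale, above miR-27a-3p by 5.27 ± 0.48 and above miR-27b-5p by 8.68 ± 0.38. Likewise miR-23b-3p was above miR-23a-3p, miR-27a-3p above miR-27a-5p by 1.15 ± 0.67, and miR-27a-5p above miR-27b-5p by 2.26 ± 0.50. The other pairs did not pass. The difference between miR-23a-3p and miR-24-2-5p was 1.61 ± 1.15 (exact permutation test, adjusted p = 0.0714), with miR-23a-3p higher in 5 of 6 libraries, and it was 1.81 to 2.77 in code series 1 but 0.38 in Control replicate 3 and -0.0035 in NEC replicate 1. That between miR-24-2-5p and miR-27a-3p was 0.15 ± 0.37 (exact permutation test, adjusted p = 0.438), less than its spread. The values are per mature miRNA, and the mature sequences shown are all 21 or 22 bases long. How evenly the library preparation captured different sequences was not tested, and the paralog pairs also depend on how reads were assigned. The order is thus that of the values, not of molecules.

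The listed values of the paralogous miR-27 hairpins were divided between the arms in different ways, as far as reads of their 3p arms were assigned to the right paralog. In Mir27b the 3p arm held nearly everything, and the 5p arm made up 0.172% to 0.326% of the back-transformed value of both arms. In Mir27a the 5p arm held 30.0%, 27.4% and 18.1% in Control replicates 1, 2 and 3 and 29.4%, 44.4% and 41.5% in NEC replicates 1, 2 and 3. Among the 92 hairpins with both arms tested, the 3p arm was the higher in 51, and the median size of the difference between arms was 2.51 on the log2 scale. With 8.68, Mir27b ranked 5 by that size, and Mir27a, with 1.15, ranked 67. The depth is unknown, so no counting interval can be given for these shares.

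The arms of Mir27a came closer to each other in the NEC libraries. The 5p minus 3p difference of log2 values was -1.22, -1.40 and -2.18 in Control replicates 1, 2 and 3 and -1.27, -0.32 and -0.50 in NEC replicates 1, 2 and 3. In each code series the NEC values were the higher, while NEC replicate 1 of code series 2 lay between Control replicates 1 and 2 of the other series. The mean rose from -1.60 ± 0.51 (SD, n = 3) to -0.70 ± 0.50 (SD, n = 3), which is 0.91 higher (standard error 0.39 in limma), and the 4 libraries of code series 1 gave 0.90 and the pair of code series 2 gave 0.91. By size it ranked 3 among the 92 hairpins, whose median size was 0.26. The arms of Mir27b differed by 0.31 (standard error 0.32) between the groups, with -8.83 ± 0.30 in Control and -8.52 ± 0.44 in NEC, and by 0.13 to 0.56 when 1 library was left out. With no covariate in limma, 0 of the 92 hairpins (0%) passed an adjusted p under 0.05 and 1 (1.09%) an unadjusted p under 0.05, which was that of miR-322, named here after its value was seen. Once the code series entered the model, 14 (15.2%) reached an unadjusted p under 0.05 and a single hairpin (1 of 92, 1.09%) an adjusted one, which was Mir27a (adjusted p = 0.0354 in limma). As miR-27a-5p was known to differ in these libraries when the hairpin was picked, that p is no independent evidence.

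**Figure D2:**
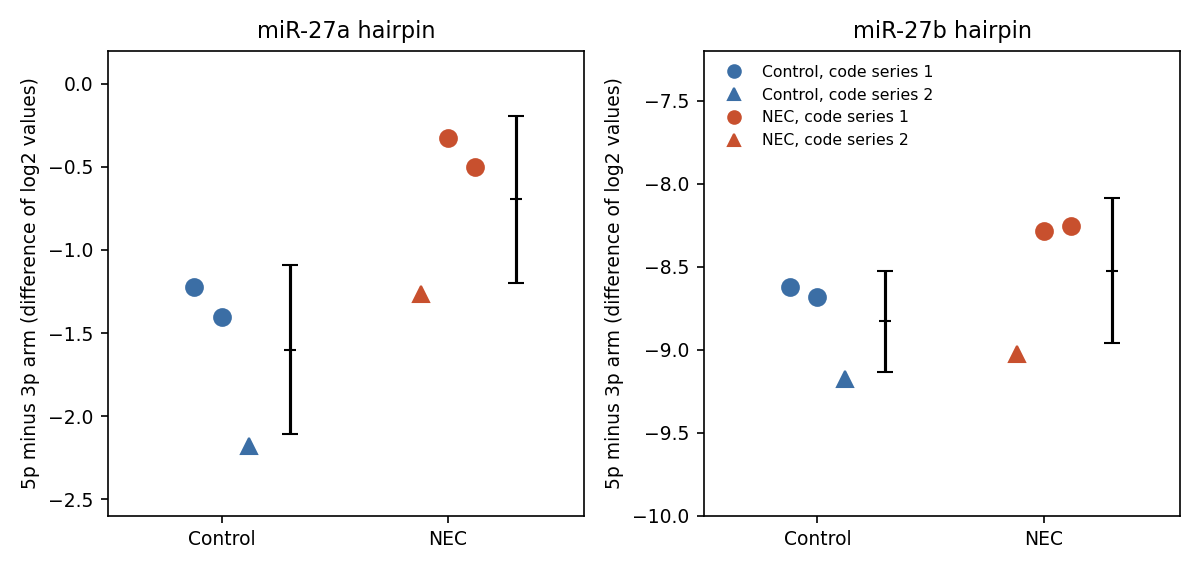
Difference of log2 values between the 5p and the 3p arm (y axis) of the Mir27a and Mir27b hairpins in the Control and NEC libraries, with circles for code series 1 and triangles for code series 2, and the mean ± SD of each group in black. The Mir27a arms lie from -2.18 to -1.22 in Control and from -1.27 to -0.32 in NEC, and those of Mir27b between -9.18 and -8.26; the y axes differ.

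Between NEC and Control, 3 of the 7 miRNAs had a higher and 4 a lower mean in NEC. For miR-27a-5p the difference was 0.81 (standard error 0.22), from 6.78 ± 0.09 (SD, n = 3) in Control to 7.59 ± 0.11 in NEC, and its unadjusted p was the lowest of the 386 miRNAs tested. Its other arm, miR-27a-3p, had a difference of -0.10 (standard error 0.37), and the other cluster a miRNAs had -0.32 (standard error 0.35) for miR-23a-3p and 0.28 (standard error 0.52) for miR-24-2-5p. In cluster b the differences were -0.37 (standard error 0.44) for miR-23b-3p, 0.24 (standard error 0.36) for miR-27b-5p and -0.07 (standard error 0.24) for miR-27b-3p. The median size of the difference was 0.28 over the 7 miRNAs and 0.22 over all 386.

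In limma with Benjamini-Hochberg adjustment, none of the 7 miRNAs and 0% of the 386 passed an adjusted p under 0.05, and no adjusted p was below 0.998. Before adjustment miR-27a-5p passed 0.05, 1 of 7, against 2.85% of the miRNAs tested, and its groups were also the only ones of the 7 that did not overlap, against 9.84%. Once the code series entered the model, again 0% passed after adjustment and 18.1% before it, of the 7 miR-27a-5p alone. The difference kept its sign in both code series for 4 of 7 miRNAs, against 63.5% of all tested. Of these, miR-27a-5p had 0.91 in the first and 0.61 in the other, and miR-24-2-5p 0.30 and 0.22. The miR-23 3p arms were lower in both, miR-23a-3p with -0.40 and -0.16 and miR-23b-3p with -0.51 and -0.11. The sign of miR-27b-5p turned, from 0.40 to -0.09. So did that of miR-27a-3p, from 0.0054 to -0.30, and that of miR-27b-3p, from 0.018 to -0.24.

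The log2 of the summed levels of 6 lists of cell type markers overlapped between Control and NEC. For 6 endothelial miRNAs they were 14.9 to 15.7 in Control and 14.9 to 15.5 in NEC, and for 5 miRNAs of leukocytes 10.6 to 11.8 and 10.7 to 11.2. A sum can hide the less abundant members of its list. Of the tested markers, 1 of endothelium had a higher and 4 a lower mean in NEC. The counts were 1 and 4 for leukocytes, 3 and 5 for intestinal epithelium and 3 and 3 for smooth muscle and mesenchyme. They were 2 and 0 for red blood cells and 2 and 1 for striated muscle. Control and NEC values of the leukocyte miR-150-5p did not overlap (means 7.55 and 6.54), against 9.84% of all tested. None of the tested markers passed an adjusted p under 0.05 in limma. In such bulk libraries fewer cells of a type and less RNA per cell cannot be told apart.

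**Figure D3:**
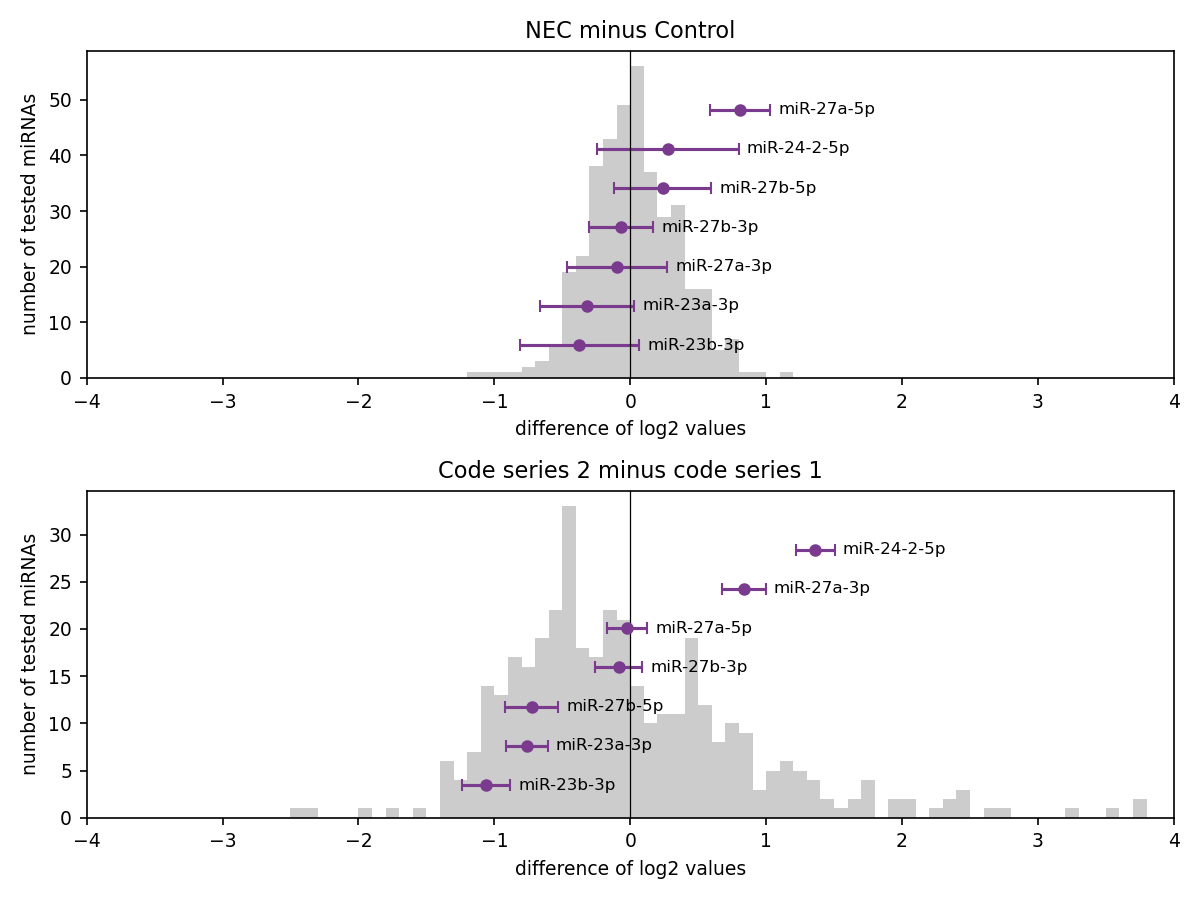
Difference of log2 values (x axis) of NEC minus Control (top) and of code series 2 minus code series 1 (bottom), with all 386 tested miRNAs as a grey histogram (y axis, number of miRNAs) and the 7 miRNAs as purple points with limma's standard error, at heights that only separate them. In the top panel miR-27a-5p stands at 0.81 and the others between -0.37 and 0.28, and in the bottom panel miR-24-2-5p at 1.36 and miR-23b-3p at -1.06 mark the ends.

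Between the code series, miRNAs of cluster a were found on both sides, while those of cluster b that passed were all lower in code series 2. In limma, adjusting for condition, 5 of the 7 miRNAs passed an adjusted p under 0.05, against 57.5% of the 386 miRNAs. Higher in code series 2 were 2, against 25.4%, and lower were 3, against 32.1%. The values did not overlap between the series for the same 5, against 68.1% of those tested. These shares lie close to those of all miRNAs. The largest rise was that of miR-24-2-5p, which rose by 1.36 (standard error 0.14, adjusted p = 0.000344 in limma), from a mean of 8.03 in code series 1 to 9.39. It was followed by miR-27a-3p, with 0.84 (standard error 0.16, adjusted p = 0.00388 in limma).

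On the other side, miR-23b-3p fell by 1.06 on the log2 scale (standard error 0.18, adjusted p = 0.00226 in limma), from 11.41 to 10.35. From the hairpin next to those of miR-27a and miR-24-2, miR-23a-3p fell by 0.76 (standard error 0.15, adjusted p = 0.00483 in limma), and miR-27b-5p fell by 0.73 (standard error 0.19, adjusted p = 0.0153 in limma). Thus the arms of cluster a, which lie within 404 bp of each other, moved in opposite directions, whereas miR-23a-3p and miR-23b-3p of different chromosomes moved in the same one. The difference of miR-27b-3p was -0.09 (standard error 0.17) and that of miR-27a-5p -0.02 (standard error 0.15), and neither passed.

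Some of these calls rest on 1 library, since code series 2 has only 2. Without Control replicate 3 the difference was -0.65 for miR-23a-3p (adjusted p = 0.0686) and 0.68 for miR-27a-3p (adjusted p = 0.0603), and without NEC replicate 1 it was -0.48 for miR-27b-5p (adjusted p = 0.189), all from limma. Over all 386 miRNAs the median difference between the series was -0.19 as deposited, -0.03 after a shift by the median deviation and -0.53 after a shift by the back-transformed total, where miR-27a-3p had 0.50 (adjusted p = 0.0551 in limma). The directions of the 5 miRNAs were the same under all 3 scalings tried.

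The arm difference also moved with the code series. In Mir27a the 5p minus 3p difference was lower in code series 2 by a log2 value of -0.86 (standard error 0.21, adjusted p = 0.00262 in limma over 92 hairpins), and in Mir27b by -0.64 (standard error 0.21, adjusted p = 0.0163). Of all hairpins 53.3% passed, and 22.8% were lower in code series 2. Without Control replicate 3 (-0.76, adjusted p = 0.0580) or NEC replicate 1 (-0.52, adjusted p = 0.214) the call of Mir27b was lost. Both comparisons can be set side by side for Mir27a, where the difference was 0.91 between NEC and Control and -0.86 between the series. In code series 2 it was the 3p arm that rose, and in NEC it was the 5p arm whose level was higher.

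Over the 6 lists of cell type markers, 18 of 29 tested miRNAs (62.1%) passed between the code series, against 57.5% of all tested, and their part in these results was not tested. Of 8 miRNAs of intestinal epithelium 5 were higher and 1 lower in code series 2, and the log2 of their summed level was 18.3 to 18.7 in code series 1 and 19.0 to 19.2 in code series 2. Of the endothelial list, 5 of 6 were tested, 2 were higher and 3 lower, and the log2 of the sum, which is nearly that of miR-126a-3p alone (mean log2 value 15.14), was 14.9 to 15.1 and 15.5 to 15.7. Of 7 listed miRNAs of leukocytes 5 were tested and 2 were lower, with 11.2 to 11.8 and 10.6 to 10.7. Of 6 miRNAs of smooth muscle and mesenchyme 2 were lower, with 18.7 to 19.4 and 18.9 to 19.0. Of 3 miRNAs of red blood cells 2 were tested and 1 was lower, with 9.40 to 10.1 and 9.71 to 10.4. Of 3 of striated muscle 1 was higher and 1 lower, with 10.5 to 11.1 and 11.5 to 12.0. The arms of the endothelial miR-126a hairpin also moved by unequal amounts, with a difference of 0.60 (standard error 0.16) for miR-126a-3p and 2.77 (standard error 0.45) for miR-126a-5p.

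The value of miR-24-2-5p ran beside that of an entry on the opposite strand. The miRNA miR-3074-2-3p is annotated from 84208839 to 84208858 on the minus strand of chromosome 8, inside the 22 bases of miR-24-2-5p, and its whole sequence is the reverse complement of part of it. Its sequence is shown in full, with the seed in capitals.
miR-3074-2-3p: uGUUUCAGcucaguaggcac

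In each library miR-24-2-5p lay above miR-3074-2-3p by nearly the same amount, 0.097 ± 0.0074 (SD, n = 6), with 0.097, 0.097 and 0.104 in Control replicates 1, 2 and 3 and 0.106, 0.093 and 0.086 in NEC replicates 1, 2 and 3. The values of miR-3074-2-3p were 7.78, 7.78 and 9.18 in Control and 9.39, 8.17 and 8.01 in NEC. How reads were assigned to strands is not stated in the sources used here, and whether both entries hold the same reads was not tested. The difference between the code series was 1.36 for miR-24-2-5p and 1.35 (standard error 0.14) for miR-3074-2-3p.

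**Figure D4:**
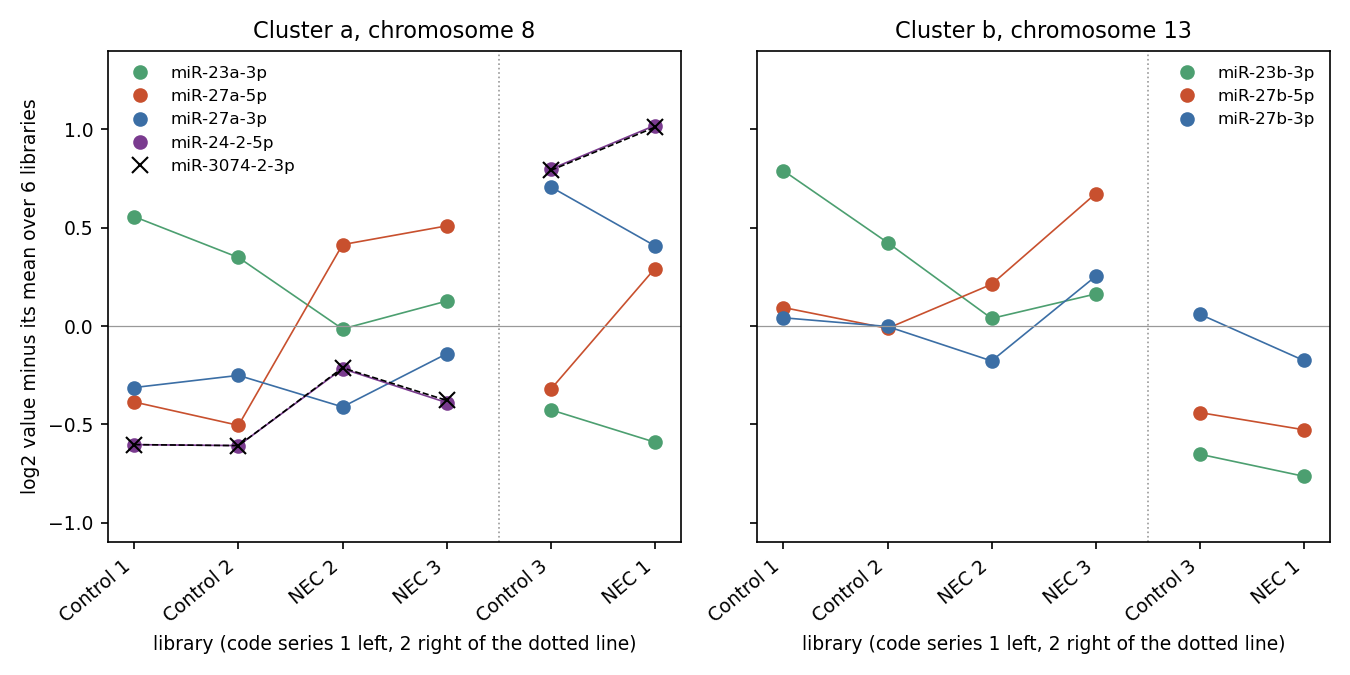
Log2 value of each miRNA minus its own mean over the 6 libraries (y axis) in every library (x axis, code series 1 left and code series 2 right of the dotted line), for cluster a and cluster b. The crosses of miR-3074-2-3p lie on the points of miR-24-2-5p, miR-23a-3p and miR-23b-3p share a falling course into code series 2, and miR-27a-5p is higher in NEC in both series.

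Likeness was measured as the root-mean-square difference of mean-centred log2 values over the 6 libraries, which share the split into code series, and is given as a description. Among the 7 miRNAs themselves the most alike were miR-23a-3p and miR-23b-3p, at 0.156, and the least alike miR-23b-3p and miR-24-2-5p, at 1.20. How far shared reads enter the likeness of the former pair was not tested. The arms of Mir27a were at 0.612 and those of Mir27b at 0.343. Outside the clusters, miR-574-3p (0.057) and miR-151-5p (0.068) were nearest to miR-23a-3p, and miR-130a-5p (0.090) and let-7d-5p (0.097) to miR-23b-3p. The epithelial miR-200a-3p (0.047) and let-7a-1-3p (0.092) were nearest to miR-27a-3p, and after miR-3074-2-3p (0.0068), miR-96-5p (0.073) was nearest to miR-24-2-5p. Both 5p arms of miR-27 had more distant neighbours. The nearest to miR-27a-5p were miR-5099 (0.162), another DEmiRNA of the study, and miR-1298-5p (0.167). For miR-27b-5p they were miR-329-3p (0.170) and miR-200c-3p (0.175), and for miR-27b-3p, which varied little, miR-3068-3p (0.087) and miR-30c-5p (0.091).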

How the data were processed

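Small RNA of mouse intestine was sequenced by the authors as 50 nt single-end reads. The authors' deposited table holds 604 miRNAs as normalized log2 values, with 1 column per library, matched through the library code in the labels. Build mm10 stands in the submitters' processing notes and DESeq2 in the methods, and the aligner, counting tool, strand setting and transformation are not stated in the sources used here. Depth is therefore unknown.

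The filter (3.32 or more in 3 or more libraries) left 386 miRNAs, all 7 of the clusters among them. NEC and Control, and the code series with condition as a covariate, were compared in limma 3.58.1 (R 4.3.3) by two-sided tests, and p-values were adjusted after Benjamini-Hochberg over 386 miRNAs or 92 hairpins. Because the table holds no counts, no count model was used. Levels were compared with an exact sign-flip permutation test. The fits were tested on simulated data with independent normal noise, which checks the code and not how these libraries vary. Sequences came from RefSeq and gene overlaps from GENCODE vM21. The miRNAs, the marker lists and the rule for named miRNAs (the clusters, further arms of their hairpins, the 2 nearest by likeness and up to 3 markers per list) were chosen with earlier results of these data known. Alternatives were other scalings, filters and added constants, a robust fit, covariates, code series 1 alone, the replicate number as a block and leaving out each library. The mRNA, PCR and cell experiments were not analysed here.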

Additional observations from a re-analysis of the deposited data

How the results depend on the processing

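Between NEC and Control no miRNA passed an adjusted p in limma under any scaling, filter, added constant or left-out library tried, and 2 did in code series 1 alone, neither of them of the clusters. There, differences near 0 changed sign, to 0.0054 for miR-27a-3p and 0.018 for miR-27b-3p. The arm difference of Mir27a passed once the code series entered the model (0.91) and in code series 1 alone (0.90), but not otherwise. The share of all hairpins that passed in code series 1 alone is not given here, so that call does not set Mir27a apart. Without each replicate in turn, differences of NEC minus Control ranged from 0.76 to 0.87 for miR-27a-5p and from -0.32 to 0.23 for miR-27a-3p. They ranged from -0.17 to 0.74 for miR-24-2-5p, from -0.038 to 0.56 for miR-27b-5p and from -0.21 to 0.0055 for miR-27b-3p. For miR-23a-3p they ranged from -0.61 to -0.10 and for miR-23b-3p from -0.79 to -0.07. Thus miR-27a-5p and both miR-23 3p arms kept their sign, but the sizes of the latter depended strongly on the library left out. Between the code series, the count of 222 miRNAs ranged from 118 to 210, with 118 without NEC replicate 1 and 133 without Control replicate 3, where code series 2 keeps 1 library that is assumed to vary like the others. The differences ranged from -0.88 to -0.65 for miR-23a-3p, 0.68 to 0.99 for miR-27a-3p, -0.97 to -0.48 for miR-27b-5p, -0.17 to 0.12 for miR-27a-5p, -0.21 to 0.041 for miR-27b-3p and, for the arms of Mir27b, -0.76 to -0.52. With libraries shifted by the median deviation, miR-27a-5p was at 0.14 and miR-27b-3p at 0.074, and with the shift by the total they were at -0.36 and -0.43, without passing, while miR-27a-3p was at 0.50 and no longer passed. Under the minimum of 50 on the back-transformed scale miR-27b-5p was not tested. Deviations of same-numbered libraries from their group means correlated at -0.69, 0.73 and -0.78 for replicates 1, 2 and 3. Replicates 1 and 3 each join libraries of different code series, and replicate 2 joins libraries of the same one. The signs thus follow the code series and cannot show whether the replicate numbers pair the libraries. With the replicate block 0 miRNAs passed, and 3 had an unadjusted p under 0.05 against 11 without it. Leave-one-out of the arm differences between the code series and of the pairs of levels was chosen after seeing the data. So were the arm fits under other filters and, between the code series, those with an added constant of 1. With 3 libraries a group and no counts, small differences of low miRNAs such as miR-27b-5p cannot be resolved.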

Other observations

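Further entries of the strand opposite to the miR-24 hairpins were looked at after the value of miR-3074-2-3p had been seen. The log2 value of miR-3074-5p, annotated opposite to the 3p arm of both Mir24-1 and Mir24-2, was 10.27, 10.23 and 10.81 in Control replicates 1, 2 and 3 and 10.65, 10.30 and 10.38 in NEC replicates 1, 2 and 3. Its difference between the code series was 0.44 (standard error 0.15, adjusted p = 0.0348 from limma). For miR-3074-1-3p the values were 3.95, 4.11 and 5.50 in Control and 5.74, 3.05 and 3.01 in NEC, with both libraries of code series 2 above the rest and by 2.09 on average (standard error 0.27, adjusted p = 0.000966 from limma). Within code series 1 its NEC values lay below its Control values. How reads were assigned to strands is not stated in the sources used here, and whether these entries hold reads of the plus strand was not tested.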
